A study of Mus musculus with 4 samples.

Results

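The TRAV14 genes are a family of mouse T cell receptor (TCR) alpha chain V genes. Each assembled alpha chain (contig) whose deposited V gene name begins with TRAV14-, TRAV14D- or TRAV14N- was counted as a member. There were 84 such contigs, 54 in the WT library and 30 in the p53 KO library, among 729 alpha contigs (393 and 336). They lay in 84 of the 659 cells with an alpha chain, and they carried 7 of the 82 TRAV gene names in the files. MC38 is a mouse colon carcinoma line, and the tumours came from wild-type (WT) cells of that line or from cells edited with CRISPR-Cas9 to lack p53 (p53 KO), carried by C57BL/6J mice. Both groups of mice received anti-PD-1, a checkpoint antibody directed at a receptor that restrains T cells, so no untreated tumour is among the samples. Whole tumours were run on the 10x Chromium 5' platform, where a barcode marks the cell and a unique molecular identifier (UMI) the RNA molecule. Each genotype had 1 TCR library, and how many mice it drew on was not stated in the sources used here. Gene expression libraries (2) belong to the series and were not analysed here. Nor was it stated whether the knockout line was 1 clone, and receptor chains do not show the p53 state of the tumour cells.

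An alpha chain is made when a developing T cell joins 1 of many V genes to 1 of many J genes. The V gene encodes CDR1 and CDR2, the loops that mostly touch the MHC molecule, while CDR3 forms at the V to J junction and lies closest to the bound peptide. In the mouse, large parts of the TRAV region were copied, and the letters D and N in a gene name mark genes in the copied blocks. A cell can rearrange its alpha locus more than once, first joining V and J genes that lie near each other and then moving outward on both sides.

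The WT library had 408 cells and 4280 UMIs in its contigs, and the p53 KO library had 392 cells and 4138 UMIs. A cell with both chains is called a paired cell, of which there were 277 and 259. A clonotype is a deposited group of cells with the same receptor, counted when it held 1 or more paired cells and assigned to the alpha contig with most UMIs, which gave 211 WT and 168 p53 KO clonotypes. TRAV14 contigs had a median of 4 UMIs in WT (range 1 to 37) and 3 in p53 KO (1 to 8), against 5 and 4 for contigs of other TRAV genes. Fewer than 3 UMIs stood behind 11 of 54 WT and 12 of 30 p53 KO TRAV14 contigs. Thus 79.6% and 60% of TRAV14 contigs had 3 or more UMIs, against 81.7% (277 of 339) and 71.9% (220 of 306) for other TRAV genes. No cell barcode was shared between the libraries (0). With 1 library per genotype no test was made and no difference has a replicate check. Each share has its exact 95% interval (Clopper-Pearson), a measure of counting error alone that treats the cells of a clone as independent.

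RefSeq lists 9 TRAV14 genes on chromosome 14 of GRCm38.p6 (mm10), spread over 908 kb, and all 7 names in the contigs matched it. In order along the chromosome they are TRAV14D-1 (52855665 to 52856166), TRAV14D-2 (52948668 to 52949169), TRAV14D-3-DV8 (53078547 to 53079045), TRAV14N-1 (53166677 to 53167178), TRAV14N-2 (53259678 to 53260179), TRAV14N-3 (53370077 to 53370575), TRAV14-1 (53554057 to 53554558), TRAV14-2 (53640775 to 53641225) and TRAV14-3 (53763196 to 53763694). The J genes follow at 54155005 to 54218842. The D block is thus the farthest from the J genes and the block without a letter the nearest. TRAV14N-1 and TRAV14N-2 had 0 contigs in either library, where a count of 0 allows up to 1.08% of the paired cells in WT and 1.16% in p53 KO (3 counts of the total). Whether a chain of these genes had been given the name of a near-identical copy was not tested, as their own sequences were not used here.

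The part of the chain that the V gene encodes before CDR3 was 267 bases (89 residues) in all 84 contigs. It was the same in every contig of a gene, in both libraries, so each gene name stood for 1 sequence. It varied at 33 of 267 positions among the 7 genes, 8 in the first framework region, 4 in CDR1, 10 in the second framework region, 3 in CDR2 and 8 in the third framework region. The 21 pairs of genes differed at 5 to 20 bases, which is an identity of 98.1% to 92.5%, and at 3 to 14 residues. TRAV14-3 and TRAV14N-3 were the closest pair and TRAV14-1 and TRAV14D-2 the most distant. These 4 are printed to show how small the differences are that tell the copies apart, with capitals at the 33 positions that vary among the 7 genes.
TRAV14-3: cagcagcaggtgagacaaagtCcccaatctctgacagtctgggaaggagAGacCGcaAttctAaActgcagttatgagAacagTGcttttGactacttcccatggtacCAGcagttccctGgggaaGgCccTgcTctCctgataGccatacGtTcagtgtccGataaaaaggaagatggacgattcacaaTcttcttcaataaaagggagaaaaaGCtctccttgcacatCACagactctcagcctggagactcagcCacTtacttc
TRAV14N-3: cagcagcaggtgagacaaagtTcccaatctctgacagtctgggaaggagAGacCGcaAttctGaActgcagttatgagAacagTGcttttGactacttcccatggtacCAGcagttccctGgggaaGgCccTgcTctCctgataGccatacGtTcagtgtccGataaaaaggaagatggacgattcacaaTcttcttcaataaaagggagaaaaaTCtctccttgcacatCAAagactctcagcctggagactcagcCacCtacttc
TRAV14-1: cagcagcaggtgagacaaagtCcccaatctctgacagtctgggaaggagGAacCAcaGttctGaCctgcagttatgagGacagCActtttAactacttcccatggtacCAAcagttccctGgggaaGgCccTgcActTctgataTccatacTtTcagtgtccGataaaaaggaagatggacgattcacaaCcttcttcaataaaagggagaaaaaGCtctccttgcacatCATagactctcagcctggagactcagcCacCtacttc
TRAV14D-2: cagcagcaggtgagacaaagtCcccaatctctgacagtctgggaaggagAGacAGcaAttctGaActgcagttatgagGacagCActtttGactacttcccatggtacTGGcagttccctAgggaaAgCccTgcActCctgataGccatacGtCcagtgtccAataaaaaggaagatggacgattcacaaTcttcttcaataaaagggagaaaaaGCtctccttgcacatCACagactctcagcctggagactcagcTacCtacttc

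**Figure D1:**
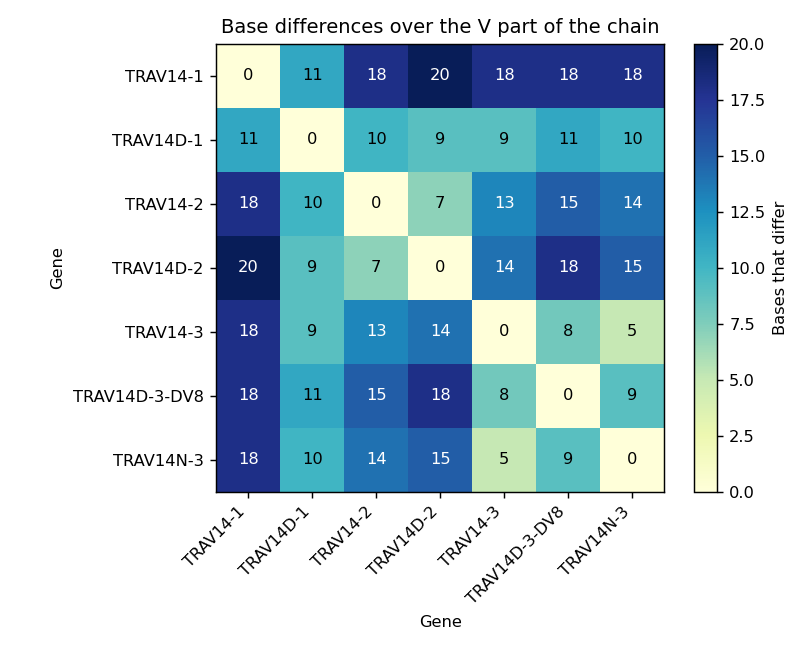
Number of bases that differ between each pair of the 7 TRAV14 genes over the 267 bases before CDR3, with darker cells for more differences. The genes numbered 3 differ from each other at 5 to 9 bases, while TRAV14-1 differs from each other gene at 11 to 20.

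The loops were fewer than the genes: CDR1 came in 3 forms and CDR2 in 3, in 5 combinations. The CDR1 followed the number of the copy and not the block, as TRAV14-1 and TRAV14D-1 encode DSTFNY, TRAV14-2 and TRAV14D-2 encode DSTFDY, and TRAV14-3, TRAV14D-3-DV8 and TRAV14N-3 encode NSAFDY. The CDR2 crossed these groups: ILSVSDK in TRAV14-1 and TRAV14D-3-DV8, IRPVSNK in TRAV14-2 and TRAV14D-2, and IRSVSDK in TRAV14D-1, TRAV14-3 and TRAV14N-3. The bases are shown because each form rests on few of them, with capitals at the 4 of 18 CDR1 positions and the 3 of 21 CDR2 positions that vary.
CDR1 of TRAV14-1 and TRAV14D-1: GacagCActtttAactac
CDR1 of TRAV14-2 and TRAV14D-2: GacagCActtttGactac
CDR1 of TRAV14-3, TRAV14D-3-DV8 and TRAV14N-3: AacagTGcttttGactac
CDR2 of TRAV14-1 and TRAV14D-3-DV8: atacTtTcagtgtccGataaa
CDR2 of TRAV14-2 and TRAV14D-2: atacGtCcagtgtccAataaa
CDR2 of TRAV14D-1, TRAV14-3 and TRAV14N-3: atacGtTcagtgtccGataaa

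TRAV14 held similar shares of both libraries, with overlapping intervals. In WT it led 29 of 211 clonotypes (13.7%, interval 9.40 to 19.1), and in p53 KO 21 of 168 (12.5%, 7.91 to 18.5). By paired cells it was the leading alpha chain in 40 of 277 (14.4%, 10.5 to 19.1) and 28 of 259 (10.8%, 7.30 to 15.2). Only the TRAV6 family, with 29 and 23 clonotypes, had more over both libraries, and TRAV7 followed with 24 and 20. The ratio of the p53 KO to the WT share of clonotypes was 0.909. Among the 12 TRAV families that reached 10 clonotypes, 2 (16.7%) were lower in p53 KO by the factor of 1.5 used here and 1 (8.33%) was higher by it, and TRAV14 was in neither group. The families with the nearest ratios over the 2 libraries were TRAV5 (0.897), TRAV10 (0.837) and TRAV6 (0.996).

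Within the family, TRAV14D-1 was in the most WT clonotypes, while in p53 KO TRAV14-1, TRAV14D-1 and TRAV14-3 lay within 1 clonotype of each other. Cells are counted here as paired cells in which the chain had most UMIs. TRAV14D-1 had 10 WT and 4 p53 KO clonotypes and led in 10 and 6 such cells, with 1 further WT cell where a TRAV8D-1 chain led, and no other TRAV14 gene had more than 6 clonotypes in a library. TRAV14-1 had 2 WT and 5 p53 KO clonotypes in 2 and 7 cells, but it tied in p53 KO with TRAV14D-1 at 5 when cells without a beta chain were kept or V genes and CDR3 nucleotides set the clonotype, and with TRAV14-3 at 4 when each alpha sequence counted once. TRAV14-2 had 6 and 3 clonotypes in 6 and 3 cells, and TRAV14-3 had 4 and 4 in 7 and 4 cells. TRAV14N-3 had 3 and 1 clonotypes in 5 and 1 cells. TRAV14D-3-DV8, whose name marks a V gene that can also serve delta chains, had 2 and 3 clonotypes in 4 and 6 cells, and TRAV14D-2 had 2 and 1 in 6 and 1. With 1 to 10 clonotypes each, these counts cannot order the genes between the tumours.

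**Figure D2:**
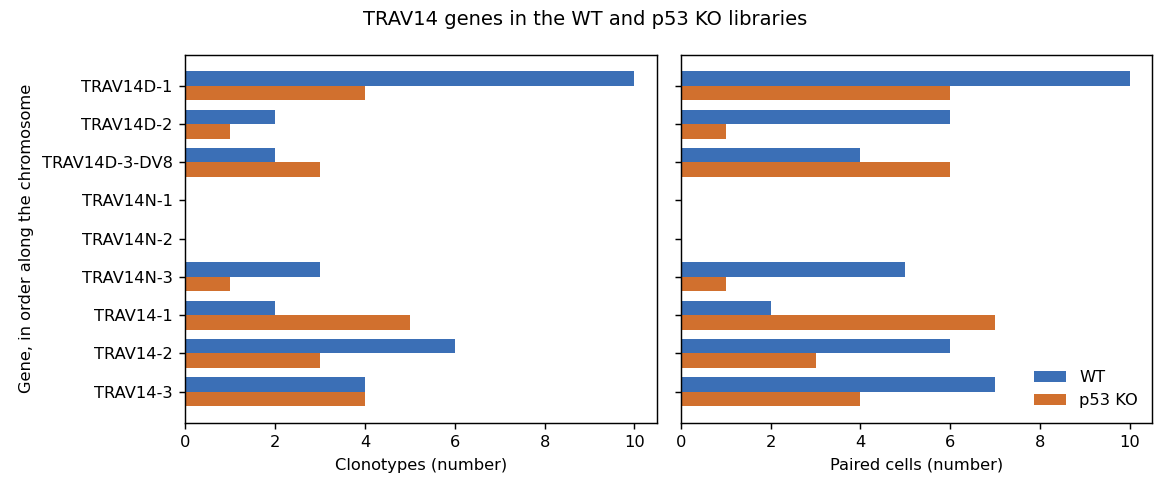
Clonotypes (left) and paired cells (right) whose leading alpha chain used each TRAV14 gene, in WT (blue) and p53 KO (orange), with the genes from top to bottom in their order along the chromosome. TRAV14D-1 has the longest WT bars, at 10 clonotypes and 10 cells, and TRAV14N-1 and TRAV14N-2 have none.

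Pooled by block, the D genes made up 14 of the 29 clonotypes of the WT library (48.3%, 29.4 to 67.5) and 8 of the 21 of the p53 KO library (38.1%, 18.1 to 61.6). The genes without a letter had 12 (41.4%, 23.5 to 61.1) and 12 (57.1%, 34.0 to 78.2). With no contig named TRAV14N-1 or TRAV14N-2, the N block was left to TRAV14N-3. Whether chains of those genes were counted under a gene of another block was not tested. Pooled by copy number, the genes numbered 1 had 12 and 9 clonotypes, those numbered 2 had 8 and 4, and those numbered 3 had 9 and 8. For each of these groups the intervals of the libraries overlapped where both are given.

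The J genes joined to TRAV14 tended to differ with the position of the V gene, on 3 to 14 clonotypes per gene. TRAJ genes are numbered downward from the V side, so a high number means a J gene near the V genes. TRAV14-3, the gene nearest to J, was joined to a median TRAJ number of 48 over 8 clonotypes of both libraries, and 5 of its 8 used TRAJ47, TRAJ49, TRAJ50, TRAJ53 or TRAJ58. The medians of the other genes without a letter were 34 for TRAV14-2 (9 clonotypes) and 31 for TRAV14-1 (7). They were 20.5 for TRAV14N-3 (4), 16 for TRAV14D-3-DV8 (5), 34 for TRAV14D-2 (3) and 17 for TRAV14D-1 (14). The medians did not follow the distance from J throughout. TRAV14D-2, on the fewest clonotypes, stood out of the order, and TRAV14D-1, the farthest gene, had 17 against 16 for TRAV14D-3-DV8.

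A TRAJ gene numbered 40 or above was in 8 of the 24 clonotypes of the genes without a letter (33.3%, 15.6 to 55.3), in 1 of 4 of TRAV14N-3, and in 2 of 22 of the D genes (9.09%, 1.12 to 29.2). Between the genes without a letter and the D genes, the counts were 5 of 12 and 1 of 14 in WT and 3 of 12 and 1 of 8 in p53 KO. TRAV14N-3 had 1 of 3 in WT and 0 of 1 in p53 KO, too few to place. The intervals overlap, and with 3 or more UMIs per contig the WT counts were 1 of 6 and 1 of 8 and the p53 KO counts 1 of 7 and 0 of 4, too few clonotypes to order the blocks. By cells, the largest WT clone, of TRAV14D-2 with TRAJ42, brings the WT D genes to 5 of 20 cells against 5 of 15. Other TRAV genes located between the TRAV14 genes of the same blocks were in more clonotypes. TRAJ40 or above was in 3 of 63 of their clonotypes in the D block (4.76%, 0.993 to 13.3), 6 of 42 in the N block (14.3%, 5.43 to 28.5) and 38 of 80 in the block without a letter (47.5%, 36.2 to 58.98). Over the whole family the share was 7 of 29 in WT and 4 of 21 in p53 KO, against 51 of 182 and 26 of 147 for all other TRAV genes. With 3 or more UMIs per contig the family's share fell from 24.1% to 12.5% in WT (2 of 16) and from 19.05% to 9.09% in p53 KO (1 of 11).

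**Figure D3:**
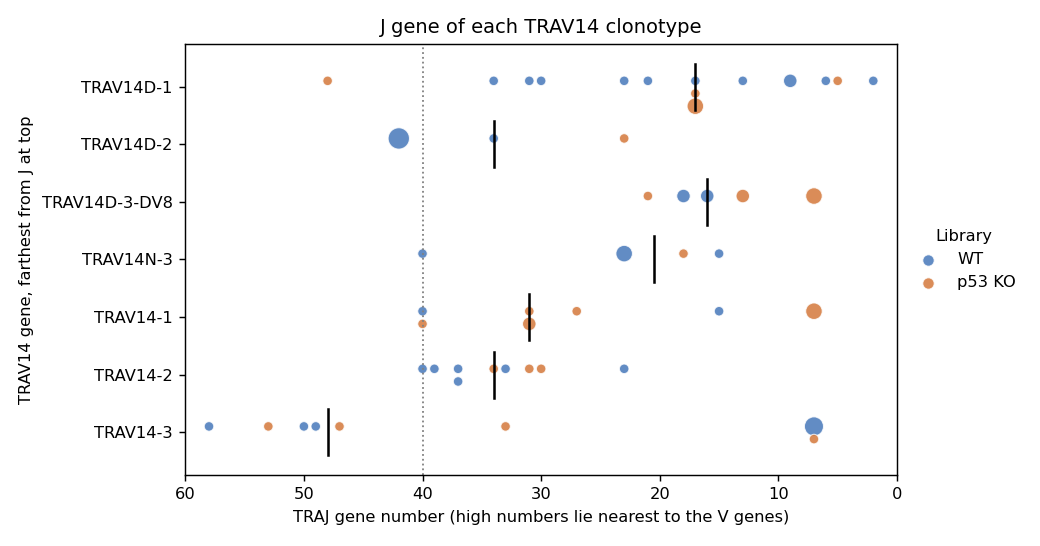
TRAJ number of each TRAV14 clonotype by V gene, in WT (blue) and p53 KO (orange). Larger points are clonotypes of more paired cells, the black bars are medians over both libraries, and the dotted line marks TRAJ40. TRAV14-3 at the bottom has its median at 48, while TRAV14D-1 at the top has 13 of its 14 clonotypes below TRAJ40.

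TRAV14 met 27 TRAJ genes in 44 V and J combinations over its 50 clonotypes, and 13 TRAJ genes were joined in 2 or more. TRAJ7, TRAJ23, TRAJ31 and TRAJ40 led with 4 clonotypes each. TRAJ17 and TRAJ34 had 3 each, all of the TRAJ17 ones with TRAV14D-1, and TRAJ13, TRAJ15, TRAJ18, TRAJ21, TRAJ30, TRAJ33 and TRAJ37 had 2 each. TRAJ37 was in 2 TRAV14 clonotypes and in 26 of other TRAV genes (17 WT and 9 p53 KO). TRAJ7 was in 1 WT and 3 p53 KO TRAV14 clonotypes, and TRAJ31 likewise in 1 and 3. TRAJ23 and TRAJ40 were each in 3 and 1.

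The start of the TRAV14 CDR3 was nearly constant. It read CAA in 27 of 29 WT clonotypes and 21 of 21 p53 KO clonotypes, against 41 of 182 and 28 of 147 for other TRAV genes. In the comparison families of many copies it read CAA in 11 of 24 and 10 of 20 TRAV7 clonotypes, 1 of 17 and 2 of 20 TRAV3 clonotypes, and 0 of 21 and 0 of 12 TRAV12 clonotypes. The residue after it, at position 4, was serine in 69.0% of the WT members (20 of 29, 49.2 to 84.7) and in 57.1% of those in p53 KO (12 of 21, 34.0 to 78.2), against 35.7% (28.8 to 43.1) and 29.9% (22.7 to 38.0) for other TRAV genes. The intervals lay apart in WT and overlapped in p53 KO. Serine was also common there in TRAV12, with 11 of 21 WT and 7 of 12 p53 KO clonotypes, while TRAV7 had it in 10 of 24 and 6 of 20 and TRAV3 in 6 of 17 and 9 of 20. Arginine or lysine stood there in 3 WT and 4 p53 KO TRAV14 clonotypes and proline in 2 and 2. Glycine stood there in 0 of 29 and 1 of 21 TRAV14 clonotypes, and in 26 of 182 and 25 of 147 of the other TRAV genes. It was as rare in TRAV7, with 0 of 24 and 1 of 20, and in TRAV12, with 1 of 21 and 0 of 12, and in TRAV3 it had 2 of 17 and 2 of 20. All these sets are defined by V gene. How far the V gene itself encodes CAA or the residue at position 4 was not tested.

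The CDR3, counted from its first cysteine to its last residue, averaged 13.07 residues over the 29 WT clonotypes (SD 1.13) and 13.5 over the 21 p53 KO clonotypes (SD 1.36). Other TRAV genes averaged 13.6 (SD 1.24, n = 182) and 13.7 (SD 1.27, n = 147). The means differed by less than 1 SD over clonotypes, which is the spread of single chains and not the error of a mean. Whether the means differ was not tested. By length, 21 of the 29 WT clonotypes had 13 or 14 residues, while in p53 KO 7 had 12, another 5 had 13, 2 had 14 and 7 had 15 or more. CDR3s of 15 or more residues were in 1 of 29 WT TRAV14 clonotypes (3.45%, 0.0873 to 17.8) and 7 of 21 p53 KO ones (33.3%, 14.6 to 57.0), against 19.8% (14.3 to 26.3) and 27.9% (20.8 to 35.9) for other TRAV genes. The intervals of the libraries overlap for TRAV14. A low WT share was also seen in TRAV3 (1 of 17) and TRAV7 (2 of 24), but not in TRAV12 (9 of 21), and in p53 KO these families had 3 of 20, 1 of 20 and 3 of 12. The 7 p53 KO chains of 15 or more residues hold 6 distinct ones, since 2 of the clonotypes had the same alpha chain. Likewise, 2 of the 7 p53 KO clonotypes of 12 residues had the same alpha chain (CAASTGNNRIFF).

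**Figure D4:**
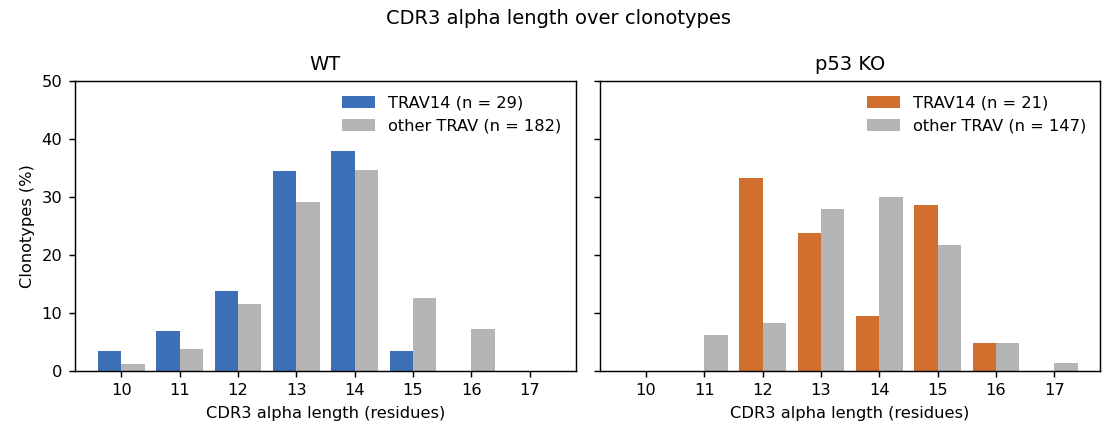
Share of clonotypes at each CDR3 alpha length, for TRAV14 (coloured) and all other TRAV genes (grey), with WT on the left and p53 KO on the right. In WT the TRAV14 bars peak at 14 residues (37.9%), and in p53 KO at 12 (33.3%) and 15 (28.6%). The p53 KO bars at 12 and at 15 each include 2 clonotypes with the same alpha chain.

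Most TRAV14 clonotypes were single cells: 23 of 29 in WT and 16 of 21 in p53 KO. Clonotypes of 2 or more paired cells were 6 of 29 in WT (20.7%, 7.99 to 39.7) and 5 of 21 in p53 KO (23.8%, 8.22 to 47.2), against 31 of 182 (17.03%, 11.9 to 23.3) and 20 of 147 (13.6%, 8.51 to 20.2) for other TRAV genes, with overlapping intervals. In 1 of the 5 p53 KO clonotypes the TRAV14 chain itself was in 1 cell, so 4 remain in which it was in 2 or more. With 3 or more UMIs per contig, 3 of 16 WT (18.75%) and 4 of 11 p53 KO TRAV14 clonotypes (36.4%) had 2 or more cells. With V genes and CDR3 nucleotides as the clonotype they were 5 of 29 (17.2%) and 4 of 22 (18.2%). In the main count TRAV3 had 6 of 17 and 3 of 20, TRAV7 4 of 24 and 5 of 20, and TRAV12 3 of 21 and 3 of 12. The largest TRAV14 clonotype had 5 cells in WT and 3 in p53 KO, and the largest of any other TRAV gene had 6 and 28.

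The WT clone of 5 cells joined TRAV14D-2 and TRAJ42 (a CDR3 of 15 residues) to TRBV15 and TRBJ2-3 (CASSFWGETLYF), and its alpha chain had 2 to 8 UMIs per cell. The same alpha nucleotide sequence was also the second alpha chain of 1 WT cell of another clonotype, which held 2 alpha and 2 beta chains, among them the same TRBV15 chain. The next WT clone, of 4 cells, joined TRAV14-3 and TRAJ7 (CAAPPSYSNNRLTL) to TRBV13-1 and TRBJ2-2 (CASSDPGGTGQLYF), with 5 to 18 alpha UMIs per cell. The third had 3 paired cells and 2 more with the alpha chain alone, and joined TRAV14N-3 and TRAJ23 (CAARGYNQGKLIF) to TRBV12-2+TRBV13-2 and TRBJ2-7 (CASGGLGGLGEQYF). A clone of TRAV14D-1 and TRAJ9 (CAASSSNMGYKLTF) with TRBV3 and TRBJ2-3 (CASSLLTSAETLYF) had 2 paired cells, both of which also held a TRAV8D-1 chain. The last of the 5, also of 2 cells, joined TRAV14D-3-DV8 and TRAJ18 (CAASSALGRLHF) to TRBV15 and TRBJ2-1 (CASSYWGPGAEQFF). A clone of TRAV14D-3-DV8 and TRAJ16 tied with it at 2 cells.

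In p53 KO, 3 clones had 3 cells each. The first joined TRAV14D-3-DV8 and TRAJ7 (15 residues) to TRBV13-1 and TRBJ2-4. Another joined TRAV14-1 and TRAJ7 (CAAKDYSNNRLTL) to TRBV5 and TRBJ2-3 (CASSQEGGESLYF). The third joined TRAV14D-1 and TRAJ17 (15 residues) to TRBV10 and TRBJ2-7 (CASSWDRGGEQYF). A clonotype of 2 cells carried TRAV14D-3-DV8 and TRAJ13 (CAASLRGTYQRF) with TRBV31 and TRBJ2-1 (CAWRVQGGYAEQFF). The other of 2 paired cells carried TRBV5 and TRBJ2-5 (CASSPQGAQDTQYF) in both, with TRAV14-1 and TRAJ31 (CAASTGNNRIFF) beside a TRAV5-4 chain in 1 cell and the TRAV5-4 chain alone in the other.

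The family met a broad set of beta chains. Its 29 WT clonotypes used 12 TRBV names and its 21 p53 KO clonotypes 13, and TRBJ2 genes were in 23 of 29 (79.3%, 60.3 to 92.0) and 17 of 21 (81.0%, 58.1 to 94.6), against 71.4% (64.3 to 77.9) and 66.7% (58.4 to 74.2) for other TRAV genes. In WT the leading partners were TRBV12-2+TRBV13-2 with 6 clonotypes, TRBV5 with 4 and, tied at 3 with TRBV2 and TRBV3, TRBV15. The combined name is as deposited, and all 83 contigs named TRBV12-2+TRBV13-2 (70) or TRBV13-2 (13) had the same CDR1 and the same CDR2. In p53 KO the leading partners by deposited name were TRBV13-1 with 5, TRBV5 with 3 and, tied at 2 with TRBV26, TRBV12-2. Counted under either name, TRBV13-2 also had 2 there, and both of its names are among the 13.

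TRBV13-1 was the beta partner of 5 of 21 p53 KO TRAV14 clonotypes (23.8%, 8.22 to 47.2) and of 7 of the 147 p53 KO clonotypes of other TRAV genes (4.76%, 1.94 to 9.57). In WT it was the partner of 2 of 29 (6.90%, 0.846 to 22.8) and of 17 of 182 (9.34%, 5.54 to 14.5). In both libraries the intervals overlap. With 3 or more UMIs per contig TRAV14 had TRBV13-1 in 2 of 16 WT clonotypes (12.5%) and 4 of 11 in p53 KO (36.4%), and by paired cells in 5 of 40 (12.5%) and 7 of 28 (25%). Over both libraries, TRBV13-1 was in 5 of the 17 clonotypes whose V gene encodes the CDR1 NSAFDY (29.4%, 10.3 to 56.0), in 1 of 21 with DSTFNY (4.76%, 0.120 to 23.8) and in 1 of 12 with DSTFDY (8.33%, 0.211 to 38.5). The 5 were 2 of 9 in WT and 3 of 8 in p53 KO. Among these 5 are the 3 clonotypes with TRAJ7 and proline at position 4 that are set out by sequence below, so the 2 observations are not separate. The split by CDR1 was looked at after the partners were seen. TRBV5 was in 13.8% (3.89 to 31.7) and 14.3% (3.05 to 36.3) of TRAV14 clonotypes and in 4.95% (2.29 to 9.18) and 6.12% (2.84 to 11.3) of the others. For TRBV5, too, the intervals overlap in both libraries. Of the 3 p53 KO TRAV14 clonotypes with TRBV5, 2 had the same alpha chain (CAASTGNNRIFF). TRBV5 was in 2 of 24 and 2 of 20 TRAV7 clonotypes, 0 of 21 and 2 of 12 of TRAV12, and 0 of 17 and 1 of 20 of TRAV3. TRBV19 was in 0 of 29 and 0 of 21, for which the exact upper limits are 11.9% and 16.1%, and in 10 of 182 (5.49%) and 11 of 147 (7.48%) clonotypes of other TRAV genes, shares that lie under those limits. It was also at 0 in TRAV3 and TRAV7 in WT (of 17 and 24) and in TRAV12 in p53 KO (of 12).

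**Figure D5:**
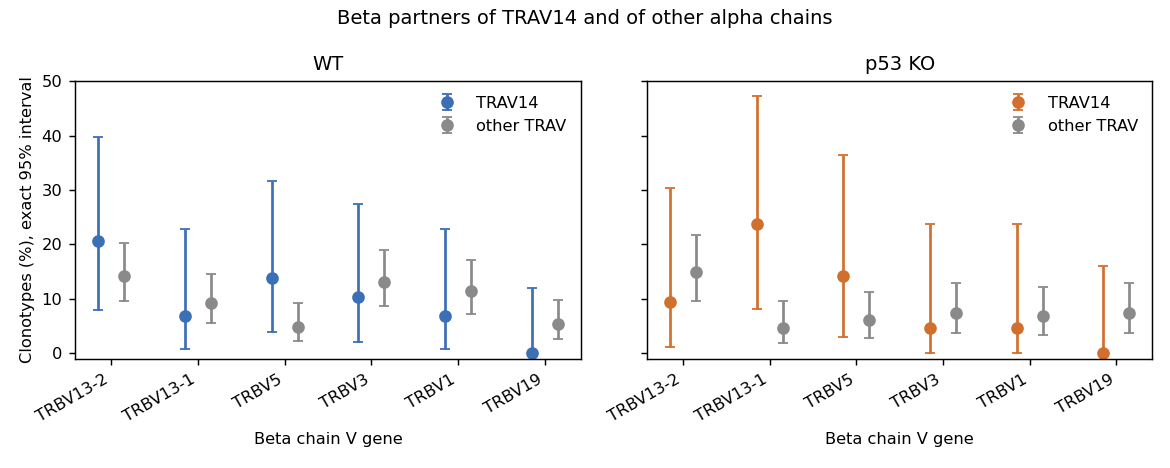
Share of clonotypes with each beta chain V gene, for TRAV14 (coloured) and all other TRAV genes (grey), with WT on the left and p53 KO on the right. Points are shares, bars are exact 95% intervals, and TRBV13-2 includes the combined name. In p53 KO the TRAV14 point for TRBV13-1 stands at 23.8% and the grey one at 4.76%, with intervals that overlap.

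Chains of TRAV14 and TRAJ7 were set out by sequence because 3 of the 4 clonotypes shared both a beta gene and the residue at position 4, which was noticed after the chains were seen. The capitals mark the bases between the 8 bases at the 5' end and the 25 at the 3' end that all 4 CDR3s have in common.
WT TRAV14-3, 4 cells: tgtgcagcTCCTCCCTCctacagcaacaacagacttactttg
p53 KO TRAV14D-3-DV8, 3 cells: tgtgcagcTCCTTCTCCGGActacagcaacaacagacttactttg
p53 KO TRAV14-3, 1 cell: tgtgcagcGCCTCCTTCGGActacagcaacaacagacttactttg
p53 KO TRAV14-1, 3 cells: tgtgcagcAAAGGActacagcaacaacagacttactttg

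The first 3 have a V gene with the CDR1 NSAFDY and encode proline at position 4, each with different bases in the junction. All 3 were paired with TRBV13-1, with different beta CDR3s: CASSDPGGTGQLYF in WT, and 2 of 15 residues with TRBJ2-4 in p53 KO. The TRAV14-1 chain encodes DSTFNY and lysine at position 4 and was paired with TRBV5. Among other TRAV genes, TRAJ7 was in 14 clonotypes, of which 2 had TRBV13-1 and 0 had proline at position 4. Proline at position 4 with any TRAJ gene was in 4 TRAV14 clonotypes, 3 of them with TRBV13-1. The remaining one, in WT, joined TRAV14-1 and TRAJ40 (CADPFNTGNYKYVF) to TRBV26. Other TRAV genes had proline there in 7 clonotypes, 1 of them with TRBV13-1. The TRAV14 chains with TRAJ7 are 4 clonotypes, and no test was made.

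TRAV14 joined to TRAJ23 gave the only CDR3 alpha amino acid sequence of the family found in both libraries (1), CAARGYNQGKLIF. Counting every TRAV14 contig and not only the leading one, 5 clonotypes had a CDR3 ending in GYNQGKLIF, each from a different V gene of the family. Their bases are shown because each chain has a different junction, with capitals at the 6 bases between the 9 at the 5' end and the 24 at the 3' end that all 5 share.
WT TRAV14N-3, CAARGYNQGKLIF: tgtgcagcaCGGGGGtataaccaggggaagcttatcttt
WT TRAV14D-1, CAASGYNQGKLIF: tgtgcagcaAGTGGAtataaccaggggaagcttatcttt
WT TRAV14-1, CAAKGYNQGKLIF: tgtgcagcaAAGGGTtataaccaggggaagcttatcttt
p53 KO TRAV14-2, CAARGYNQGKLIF: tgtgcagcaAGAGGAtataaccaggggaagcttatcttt
p53 KO TRAV14D-2, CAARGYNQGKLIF: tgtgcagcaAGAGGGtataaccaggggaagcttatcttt

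All 5 of these clonotypes, 3 in WT and 2 in p53 KO, had a TRBV12-2+TRBV13-2 beta chain, and the 5 beta CDR3s were different. They read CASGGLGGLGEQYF with TRAV14N-3, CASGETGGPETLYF with TRAV14D-1, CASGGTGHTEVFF with TRAV14-2 and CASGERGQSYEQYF with TRAV14D-2, and the fifth, of 14 residues, used TRBJ1-1. In the TRAV14-1 and TRAV14-2 cells the chain lay beside another alpha chain, of TRAV12-1 and TRAV3-3, so by the leading chain alone the count was 3 of 3. The remaining TRAV14 chain with TRAJ23 (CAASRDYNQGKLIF, TRAV14-2, WT) was paired with TRBV1. Among all TRAV14 clonotypes, TRBV13-2 under either name was in 6 of 29 in WT and 2 of 21 in p53 KO. The pairing was not restricted to TRAV14. Clonotypes of other TRAV genes were counted by the leading chain alone, as in the 3 of 3. Those with a CDR3 ending in GYNQGKLIF had TRBV13-2 in 4 of 6 cases in WT and 3 of 10 in p53 KO. Among all clonotypes of other TRAV genes it was in 26 of 182 and 22 of 147. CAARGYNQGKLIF itself was also made by TRAV7D-2, in 2 WT and 2 p53 KO clonotypes. The ending was singled out after the chains were seen, and no test was made.

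The other recurrent alpha chains stayed within a library, and each had 1 nucleotide sequence. TRAV14-1 with TRAJ31 (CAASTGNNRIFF) was in 2 p53 KO clonotypes, both with TRBV5 but with different beta CDR3s (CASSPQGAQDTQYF and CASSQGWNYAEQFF). TRAV14D-1 with TRAJ17 (15 residues) was in 5 p53 KO cells of 3 clonotypes, 1 with TRBV10, 1 with TRBV17 and 1 without a beta chain. The TRAV14D-2 and TRAJ42 chain of 15 residues, described with the largest WT clone, was in 6 WT cells of 2 clonotypes. No TRAV14 alpha nucleotide sequence was found in both libraries (0), and whether cells of a recurrent chain descend from 1 T cell was not tested.

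Every TRAV14 contig was placed. In WT, 41 of 54 contigs were the leading alpha chain of a clonotype in a paired cell, 4 were that chain in a cell without beta, 2 were not the leading alpha chain of their clonotype and 7 lay in 6 clonotypes with no beta chain at all. In p53 KO these were 28, 0, 1 and 1 of 30. A TRAV14 cell lacked a beta chain in 11 of 54 cases in WT (20.4%, 10.6 to 33.5) and 1 of 30 in p53 KO (3.33%, 0.0844 to 17.2), against 71 of 312 (22.8%, 18.2 to 27.8) and 40 of 275 (14.5%, 10.6 to 19.3) of the cells with a contig of another TRAV gene. A second alpha chain, always of another family, lay in 7 of 54 (12.96%, 5.37 to 24.9) and 5 of 30 (16.7%, 5.64 to 34.7) TRAV14 cells. Among cells with a contig of another TRAV gene it lay in 34 of 312 (10.9%, 7.67 to 14.9) and 36 of 275 (13.1%, 9.34 to 17.7), with overlapping intervals. Cells with 2 or more beta or 3 or more alpha chains may hold more than 1 T cell. They were 2 of 54 WT and 1 of 30 p53 KO TRAV14 cells. Over all cells of the libraries they were 14 of 408 and 22 of 392.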

How the data were processed

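For each TCR library the authors deposited a list of filtered contigs with V and J gene, CDR sequences, clonotype and barcode. The deposited reads and UMIs per contig are raw counts, per the file headers, and no normalization was applied. Cell Ranger 6.1.1 and mm10 were used, per the submitters' processing notes, while the TCR reference version was not given in the sources used here. Each of the 733 WT and 709 p53 KO contigs carried the marks high-confidence, full-length and productive.

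Samples were grouped by the genotype and library type in their titles. Among several contigs the one with most UMIs led (ties by reads, then contig name). Intervals are Clopper-Pearson, with no test across the 2 libraries. Coordinates are RefSeq's for GRCm38.p6. Families were compared by the ratio of shares, called at 1.5. No doublet caller was run. The family and the lists were chosen with earlier results of these data known. Named were all TRAV14 genes found, the TRAV3, TRAV7 and TRAV12 families, TRAJ genes in 2 or more TRAV14 clonotypes, the 3 leading TRBV partners and 5 largest clonotypes per library, recurrent CDR3s and the 3 families of nearest ratio. Scripts were tested on simulated contigs. The tools were scipy 1.17.1, pandas 2.3.3, matplotlib 3.10.9 and numpy 2.4.6 in Python 3.11.15.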

Additional observations from a re-analysis of the deposited data

How the results depend on the processing

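Alternatives were other definitions of a clonotype, cells with an alpha chain only, a minimum of 3 UMIs per contig, no possible multiplets, any alpha contig in place of the leading one, each alpha nucleotide sequence once, and paired cells in place of clonotypes. The TRAV14 share of clonotypes ranged from 11.8% to 14.7% in WT and from 10.8% to 13.9% in p53 KO, and the ratio of shares from 0.749 to 1.008. The number of TRAV families with a lower p53 KO share was 1 when each alpha sequence counted once, 3 when cells without a beta chain were kept and 3 by paired cells, in place of 2. The number with a higher share was 3 when cells without a beta chain were kept, 2 without possible multiplets and 2 by paired cells, in place of 1. With 3 or more UMIs, 0% of the p53 KO clonotypes of the D genes had a TRAJ gene numbered 40 or above, in place of 12.5%. The alternatives for the TRBV13-1, TRBV13-2 and block results were chosen after seeing the data. Single genes moved more: TRAV14D-1 ranged from 6 to 13 WT and from 1 to 5 p53 KO clonotypes, and TRAV14-1 from 1 to 3 and from 4 to 5. The number of cells limits all of these: the family rests on 29 and 21 clonotypes, and a single gene on 10 at most in a library. No paired analysis was possible because each genotype had 1 library.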
